A study of Homo sapiens with 31 samples.

Results

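NRF2, the transcription factor encoded by NFE2L2, and its pathway were examined at the level of mRNA in 2 cell models used for ovarian cancer. The genes were taken by symbol from the deposited expression table. They were NFE2L2, its inhibitor KEAP1, the target NQO1, and 6 further targets of NRF2 (HMOX1, GCLC, GCLM, TXNRD1, SRXN1 and SLC7A11). All 9 were found among 19221 genes. Values came from 31 RNA-seq libraries in 4 groups. C13* cells were used by the study as a cisplatin-resistant ovarian cancer line, and the paper itself questions their use because of their origin. They carried a lentiviral control shRNA (shCON, n = 7) or an shRNA against CEBPB (shCEBPB, n = 8). CEBPB is the gene of the transcription factor C/EBPβ. A2780 cells, an ovarian cancer line of adenocarcinoma type, were the untreated parent (A2780, n = 8) or a stable strain grown in rising concentrations of the PARP inhibitor olaparib (A2780 OlaR, n = 8). The strain was called resistant once its IC50 was 30 times that of the parent. The methods of the study call the libraries of a group biological replicates. Whether they came from separate cultures is not given in the sources used here, so p-values measure only the spread between these libraries.

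NRF2 is held at a low level by KEAP1, which hands it to a CUL3 ubiquitin ligase for degradation. Oxidants and electrophiles modify cysteines of KEAP1, and NRF2 then enters the nucleus, pairs with a small MAF protein and binds the antioxidant response element (ARE) of its targets. The control lies mainly in the NRF2 protein, which RNA-seq does not measure. NQO1 reduces quinones and is widely read as a gauge of NRF2 activity, while other targets supply glutathione, reduce thioredoxin or break down haem. NQO1, GCLM and TXNRD1 are known for AREs near their start sites.

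Values are FPKM, fragments scaled by gene length and library size. Levels of different genes can be set side by side only roughly, since the gene lengths used are not given in the sources used here. Read totals are not in the table and absolute depth is unknown. The steps of low values gave a relative depth of 0.865 to 1.23 over the 31 libraries. The targeted gene CEBPB ran from 75.2 to 101 FPKM in C13* shCON (median 85.4) and from 30.2 to 58.7 in C13* shCEBPB (median 49.5), without overlap. In A2780 it ran from 85.6 to 111 FPKM (median 99.7) and in A2780 OlaR from 97.1 to 127 (median 113). The group profiles did not pair by cell line. Across 19221 genes, Pearson's r of mean log2(FPKM + 1) was 0.996 between A2780 OlaR and C13* shCON, against 0.856 between A2780 OlaR and A2780 and 0.890 between C13* shCEBPB and C13* shCON. No gene was at 10 FPKM or more in all libraries of A2780 OlaR and below 0.1 in all of C13* shCON or the reverse, while 154 genes split A2780 OlaR from A2780 in this way and 111 split C13* shCEBPB from C13* shCON. The 4 squamous markers (KRT5, KRT14, TP63 and KRT6A) summed to 1735 to 2107 FPKM in A2780 OlaR and to 1532 to 1805 in C13* shCON, and to at most 0.191 in A2780 and 0.316 in C13* shCEBPB. Of the ovarian markers PAX8, WT1, MUC16 and FOLR1, none reached a mean of 7 FPKM except FOLR1, which was at 13.3 ± 1.59 in A2780 and 887 ± 49.9 in C13* shCEBPB. A single label field of C13* shCON replicate 1 names A2780 as its line, while its title has C13*. In both comparisons, the knockdown or the resistance and a difference of cell line therefore cannot be told apart. The groups are named below only as labelled. Since A2780 OlaR and C13* shCON were so alike, opposite directions in the 2 comparisons are not independent observations. The share of all genes with opposite directions was not counted.

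ARE cores near the members' starts are shown because NQO1 and its neighbours in the pathway are described by them. The core TGACNNNGC, the C/EBP site TTGCNNAA and the AP-1 site TGANTCA were searched on both strands in RefSeq promoter windows (GRCh38.p14, 300 bases around a start, most of them upstream), in which 13.3%, 10.5% and 7.71% of 35116 windows held them. Of the 9 members, 7 had a window. HMOX1 and SLC7A11 were not in the table of windows. KEAP1 held 2 ARE cores, GCLM 1 and TXNRD1 3, GCLC held the C/EBP site, and the windows of NFE2L2, NQO1 and SRXN1 held none of the 3 motifs. In 1000 bases upstream of each start on hg38, where 31.9% of 35116 starts have an ARE core, NQO1 had 1, centred 451 bases upstream, and GCLC had 1, at 866 bases. For KEAP1 and TXNRD1 a single core is shown. Capitals mark the motif, and each sequence reads along the strand that holds it.
NQO1, ARE core with an AP-1 site inside it, chr16:69726997-69727025, minus strand: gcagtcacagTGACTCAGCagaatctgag
GCLM, ARE core, chr1:93909446-93909474, plus strand: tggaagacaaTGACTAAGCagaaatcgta
KEAP1, ARE core, chr19:10502784-10502812, plus strand: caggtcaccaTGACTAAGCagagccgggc
TXNRD1, ARE core, chr12:104286920-104286948, minus strand: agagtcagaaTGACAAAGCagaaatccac
GCLC, ARE core, chr6:53545953-53545981, plus strand: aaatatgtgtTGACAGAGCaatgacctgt
GCLC, C/EBP site, chr6:53545279-53545306, minus strand: tatgtcgcgtTTGCGTAAagcgaggccg
These are matches of letters and say nothing of binding in these cells. They were not compared with the AREs known for these genes.

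**Figure D1:**
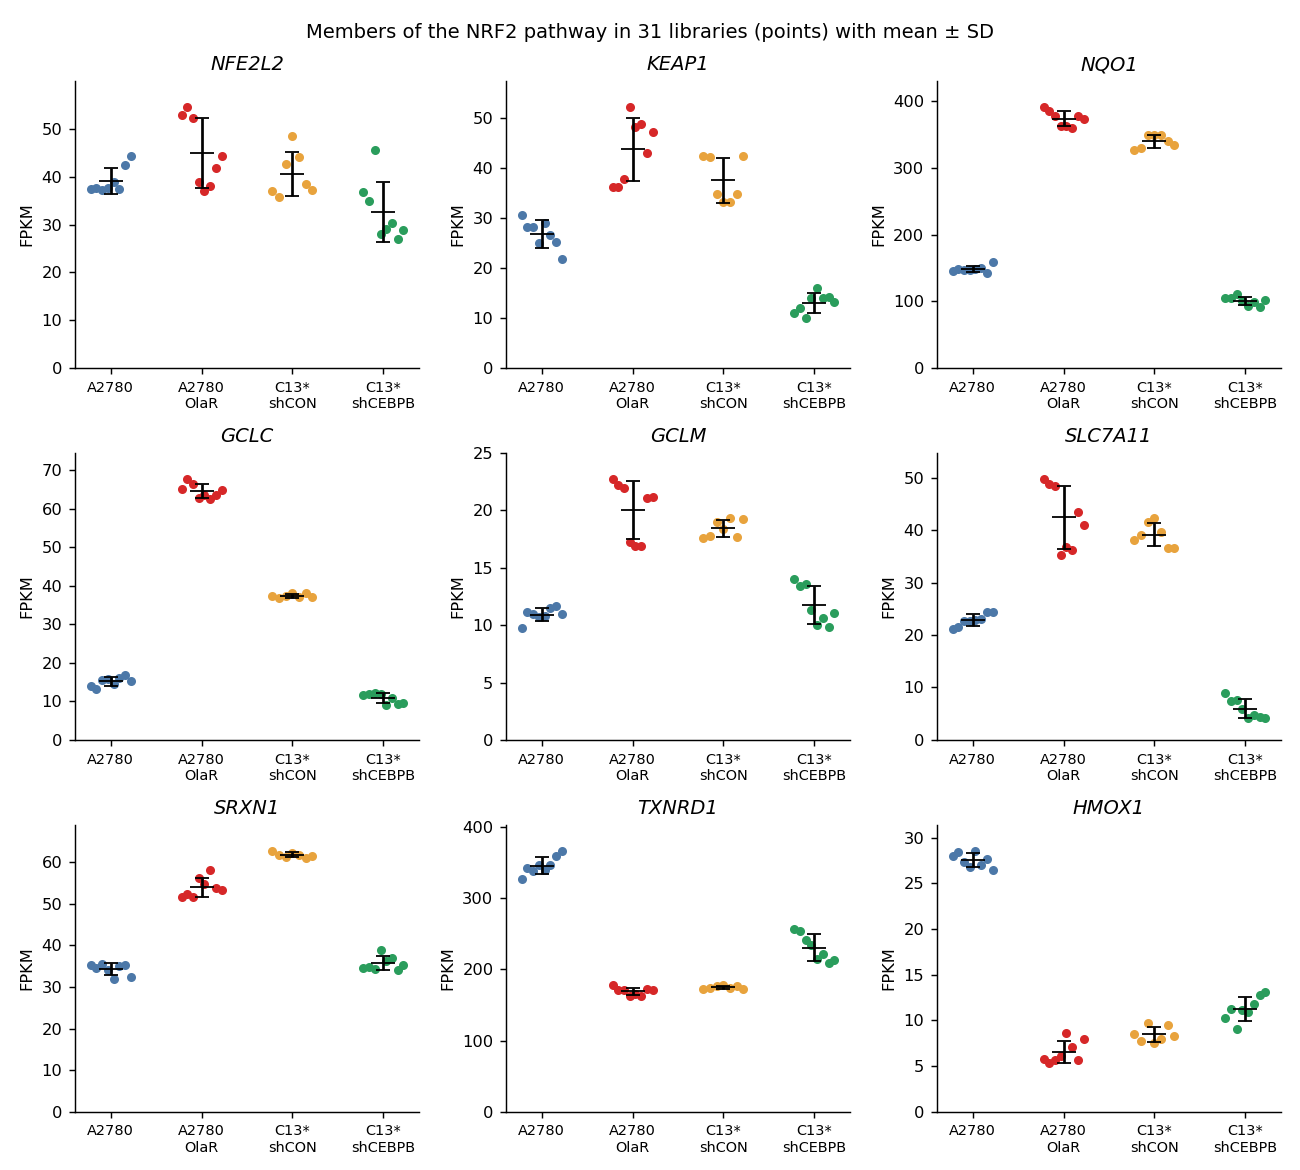
FPKM of the 9 members (1 panel each, y axis from 0) in the 31 libraries, with a point for each library and black bars for the mean ± SD of a group. NQO1, GCLC, KEAP1 and SRXN1 of A2780 OlaR and C13* shCON lie above all libraries of A2780 and C13* shCEBPB, while TXNRD1 and HMOX1 of those groups lie below all libraries of A2780.

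NQO1 (NAD(P)H quinone dehydrogenase 1, ENSG00000181019) lies on the minus strand of chromosome 16 of hg38, from 69706996 to 69726668. It varied little within groups, with a coefficient of variation (SD as a percentage of the mean) of 2.81% to 6.14% in the 4 groups. In C13* shCON, NQO1 ran from 327 to 349 FPKM (median 339.8), and in C13* shCEBPB from 92.3 to 111 (median 101). The groups were far apart, and the highest shCEBPB library was below every shCON library. The mean fell from 339.7 ± 9.55 (SD, n = 7) to 101 ± 6.20 FPKM (SD, n = 8), a log2 difference of -1.74 (standard error 0.04, adjusted p = 2.27e-17, limma). In A2780, NQO1 ran from 142 to 159 FPKM (median 148), and in A2780 OlaR from 359 to 391 (median 375). Here the resistant strain was the higher group, again without overlap. The mean rose from 149 ± 4.92 (SD, n = 8) to 374 ± 11.4 FPKM (SD, n = 8), 2.52 times as high, with a log2 difference of 1.33 (standard error 0.03, adjusted p = 2.21e-19, limma). Within library numbers 1 to 3 and within 4 to 8, the difference was -1.64 and -1.81 in C13* and 1.38 and 1.29 in A2780. In bulk RNA, a lower level in each cell and fewer cells with the transcript cannot be told apart. Log2 differences are of the mean log2(FPKM + 1), which understates the change of low genes. NQO1 shares 575 bp of exon with a long noncoding RNA on the opposite strand, and whether counting used the strand is not given in the sources used here.

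These sizes stood within a background of wide change. Of 12006 genes tested in C13*, 84.7% had an adjusted p under 0.05, and 13.2% had a log2 difference at least as large as that of NQO1 in either direction. Of 12458 genes tested in A2780, the shares were 89.8% and 25.3%. The median of all genes tested was -0.07 in C13* and -0.12 in A2780. It was -0.18 in A2780 after scaling to a common sum and 0.01 after median ratio scaling, so changes in A2780 are also given relative to the median where they are small.

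KEAP1, the adaptor that marks NRF2 for degradation, moved in the same directions as NQO1. It lies on the minus strand of chromosome 19 from 10486125 to 10503558. KEAP1 ran from 33.1 to 42.4 FPKM in C13* shCON (median 34.9) and from 9.97 to 16.1 in C13* shCEBPB (median 13.6). It ran from 21.8 to 30.7 FPKM in A2780 (median 27.4) and from 36.2 to 52.1 in A2780 OlaR (median 45.1). Groups did not overlap in either comparison. The log2 difference was -1.46 in C13* (standard error 0.09, adjusted p = 4.53e-11, limma) and 0.68 in A2780 (standard error 0.08, adjusted p = 2.23e-07, limma). In A2780 it was 0.33 within library numbers 1 to 3 and 0.89 within 4 to 8.

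NFE2L2, the gene of NRF2 itself, had the smallest log2 difference of the 9 members over all libraries in both comparisons. It lies on the minus strand of chromosome 2 from 177218667 to 177392756. NFE2L2 ran from 35.8 to 48.5 FPKM in C13* shCON (median 38.6) and from 26.9 to 45.6 in C13* shCEBPB (median 29.7). It ran from 37.2 to 44.3 FPKM in A2780 (median 37.6) and from 36.9 to 54.5 in A2780 OlaR (median 43.1). Libraries overlapped in both comparisons. The log2 difference in C13* was -0.32 (standard error 0.10, adjusted p = 0.0071, limma), and an exact permutation test of the libraries, two-sided, gave p = 0.0146. In A2780 it was 0.18, or 0.30 above the median of all genes (standard error 0.08, adjusted p = 0.0365, limma), and the exact permutation test gave p = 0.06. NFE2L2 shares 3509 of its 14975 exonic bp with HNRNPA3 on the opposite strand, so that its FPKM is uncertain where counting ignored the strand.

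The call of NFE2L2 depended on the range of libraries in both comparisons and was near the threshold in A2780. In library numbers 1 to 3 the log2 difference was 0.020 in C13* and 0.50 in A2780, and in numbers 4 to 8 it was -0.53 and -0.0058. Leaving out any of 9 of the 16 libraries of A2780 (replicates 1 to 3 of A2780 OlaR, or 1 to 6 of the parent) ended the call, with a log2 difference of 0.14 to 0.18 (adjusted p from 0.0513 to 0.0811, limma). Scaling to a common sum gave 0.12 (adjusted p = 0.216, limma) and quantile normalization 0.18 (adjusted p = 0.0622, limma). Median ratio scaling gave 0.32 (adjusted p = 0.000723, limma). In A2780 OlaR, libraries 1 to 3 had 52.3 to 54.5 FPKM of NFE2L2 and libraries 4 to 8 had 36.9 to 44.4. KEAP1 stood the other way round, with 36.2 to 37.7 FPKM in libraries 1 to 3 and 43.0 to 52.1 in libraries 4 to 8. C13* shCEBPB libraries 1 to 3 likewise had more NFE2L2 (35.0 to 45.6 FPKM) and less KEAP1 (9.97 to 12.1 FPKM) than libraries 4 to 8, with 26.9 to 30.4 and 13.2 to 16.1 FPKM. GCLM, SLC7A11 and NQO1 were also highest in libraries 1 to 3 of both groups. For NQO1 the gap was small, with at least 378.4 FPKM in A2780 OlaR libraries 1 to 3 and at most 378.1 in libraries 4 to 8. In C13* shCEBPB it had at least 104.6 and at most 101.9 FPKM. The GC content of the libraries moved with this. GC content was taken from the Ensembl canonical transcript, 1 for each gene. It is 42.11% for NFE2L2, 60.23% for KEAP1, 37.33% for GCLM, 35.4% for SLC7A11 and 43.83% for NQO1. As a GC balance, the mean log2 deviation of genes in the upper quartile of GC content (57.1% or more) from their group mean was taken, less that of genes in the lower quartile (41.9% or less), over 6294 genes. This balance was -0.34 to -0.32 in A2780 OlaR libraries 1 to 3 and 0.0035 to 0.33 in libraries 4 to 8. It was -0.56 to -0.19 in C13* shCEBPB libraries 1 to 3 and 0.15 to 0.31 in libraries 4 to 8. In A2780 it ran the other way, with 0.10 to 0.23 in libraries 1 to 3 and -0.31 to 0.041 in libraries 4 to 8. In C13* shCON it was -0.069 to 0.12 and -0.24 to 0.16. The differences within library numbers 1 to 3 or 4 to 8 therefore do not compare libraries matched in this balance. Correcting the libraries for GC content, a setting chosen after seeing the data, gave NFE2L2 a log2 difference of -0.14 in C13* (adjusted p = 0.0386, limma) and 0.40 in A2780 (adjusted p = 1.19e-08, limma). For KEAP1 it gave -1.51 and 0.71, close to the values without it. For NQO1 it gave -1.56 and 1.44, against -1.74 and 1.33 without it. The part of GC content in the NFE2L2 values was not tested beyond this correction.

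**Figure D2:**
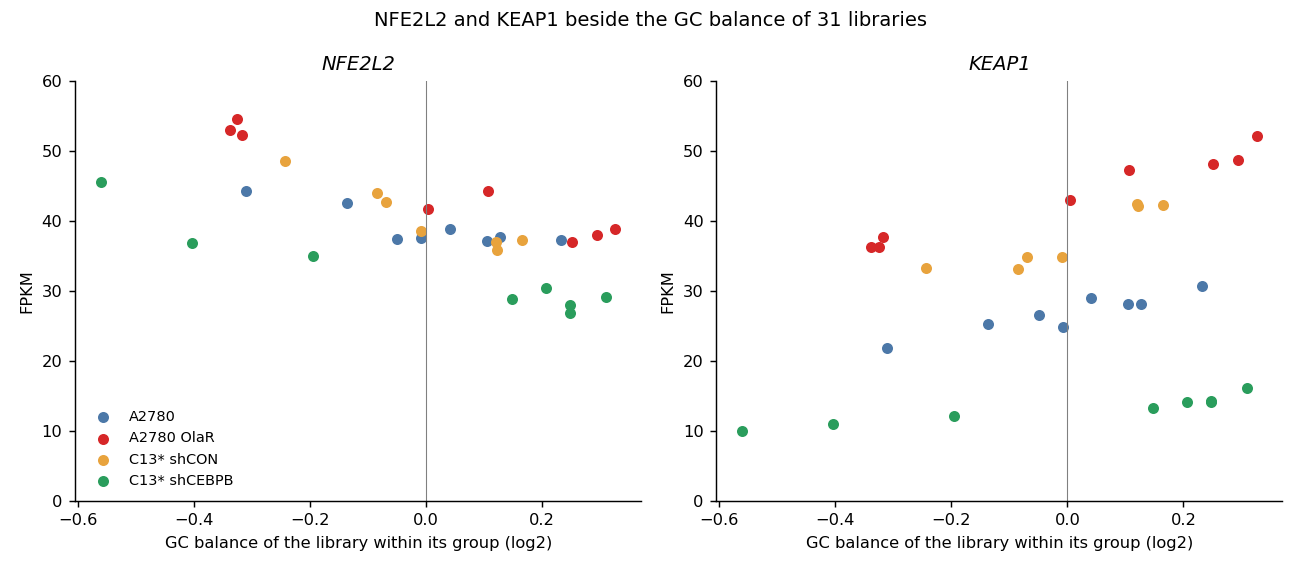
FPKM of NFE2L2 (left) and KEAP1 (right) against the GC balance of each library within its group (log2 scale, 0 is the group mean), with a point for each of the 31 libraries coloured by group. In A2780 OlaR, libraries 1 to 3, with a balance of -0.34 to -0.32, had 52.3 to 54.5 FPKM of NFE2L2 and 36.2 to 37.7 of KEAP1, and the other 5 libraries had less NFE2L2 and more KEAP1.

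SLC7A11, GCLC and GCLM, the members that supply glutathione, moved in the same directions as NQO1. SLC7A11, the cystine carrier that brings in the cysteine for glutathione, had the largest difference of the members in C13*. SLC7A11 ran from 36.6 to 42.2 FPKM in C13* shCON (median 39.1) and from 4.18 to 8.92 in C13* shCEBPB (median 5.39). The mean was 39.1 ± 2.21 (SD, n = 7) and 5.93 ± 1.84 FPKM (SD, n = 8), 6.60 times as high in shCON, and the log2 difference was -2.58 (standard error 0.13, adjusted p = 1.9e-12, limma). In A2780 it ran from 21.1 to 24.4 FPKM (median 22.7) and in A2780 OlaR from 35.3 to 49.8 (median 42.2). The strain was higher in every library, with a log2 difference of 0.86 (standard error 0.07, adjusted p = 6.56e-10, limma). SLC7A11 lies on the minus strand of chromosome 4 from 138164097 to 138242349 and shares 865 bp of exon with SLC7A11-AS1.

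GCLC and GCLM encode the catalytic and the modifier subunit of glutamate-cysteine ligase, the enzyme that limits glutathione synthesis. GCLC (chromosome 6, 53497341 to 53616970, minus strand) ran from 36.9 to 38.2 FPKM in C13* shCON (median 37.3) and from 9.19 to 12.2 in C13* shCEBPB (median 11.4). In A2780 it ran from 13.3 to 16.9 FPKM (median 15.5) and in A2780 OlaR from 62.5 to 67.8 (median 64.2). The GCLC mean was thus 4.25 times as high in A2780 OlaR as in A2780, the largest rise of the members, with a log2 difference of 2.02 (standard error 0.04, adjusted p = 1.3e-19, limma). In C13* the log2 difference was -1.71 (standard error 0.06, adjusted p = 1.34e-14, limma). GCLM (chromosome 1, 93885199 to 93909456, minus strand) moved less. It ran from 17.6 to 19.3 FPKM in C13* shCON (median 18.4), from 9.83 to 14.0 in C13* shCEBPB (median 11.2), from 9.73 to 11.7 in A2780 (median 10.9) and from 16.9 to 22.7 in A2780 OlaR (median 21.1). Neither comparison had overlapping libraries. The log2 difference of GCLM was -0.62 in C13* (standard error 0.07, adjusted p = 2.54e-07, limma) and 0.81 in A2780 (standard error 0.07, adjusted p = 4.78e-10, limma). In C13* it was -0.38 within library numbers 1 to 3, -0.76 within 4 to 8 and -0.36 with the GC correction. As FPKM, the catalytic subunit was 3.23 times the modifier subunit in A2780 OlaR, 2.03 times in C13* shCON, 1.39 times in A2780 and 0.924 times in C13* shCEBPB, by the group means. The gene lengths behind the FPKM are not given in the sources used here. GCLC has 8618 exonic bp and a canonical transcript of 3785 bases, and GCLM has 5426 and 4883. The ratios are therefore uncertain in size, and which subunit had more mRNA in a group is not settled. GCLC shares 529 bp of exon with a long noncoding RNA on its own strand and 305 bp with GCLC-AS1 on the other.

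SRXN1, which repairs over-oxidised peroxiredoxins, moved in the same directions as NQO1 with little spread. SRXN1 (chromosome 20, 646615 to 653200, minus strand) ran from 61.0 to 62.8 FPKM in C13* shCON (median 61.8) and from 34.1 to 39.0 in C13* shCEBPB (median 35.2). It ran from 31.9 to 35.5 FPKM in A2780 (median 34.8) and from 51.7 to 58.1 in A2780 OlaR (median 53.6). Every library of the higher group was above every library of the lower. The log2 difference was -0.78 in C13* (standard error 0.04, adjusted p = 3.42e-13, limma) and 0.64 in A2780 (standard error 0.03, adjusted p = 5.82e-13, limma). Of the 2528 exonic bp of SRXN1, 2292 are shared with a protein-coding gene on the same strand (ENSG00000270299), so that counting could split its reads.

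TXNRD1 and HMOX1 moved against NQO1 in both comparisons. TXNRD1 is the cytosolic thioredoxin reductase (chromosome 12, 104215779 to 104350307, plus strand). It ran from 172 to 178 FPKM in C13* shCON (median 174) and from 208 to 257 in C13* shCEBPB (median 227), and it was higher in every shCEBPB library. In A2780 it ran from 327 to 366 FPKM (median 344) and in A2780 OlaR from 162 to 178 (median 170.4), lower in every library of the strain. The log2 difference of TXNRD1 was 0.39 in C13* (standard error 0.05, adjusted p = 4.61e-07, limma) and -1.03 in A2780 (standard error 0.03, adjusted p = 2.01e-17, limma). HMOX1, haem oxygenase 1 (chromosome 22, 35380361 to 35394214, plus strand), is driven by NRF2 and held down by BACH1. HMOX1 ran from 7.52 to 9.72 FPKM in C13* shCON (median 8.28) and from 9.06 to 13.1 in C13* shCEBPB (median 11.2), and the groups overlapped. It ran from 26.4 to 28.6 FPKM in A2780 (median 27.5) and from 5.33 to 8.60 in A2780 OlaR (median 5.98). The parent was far above the strain, 4.21 times by the means. The log2 difference of HMOX1 was 0.38 in C13* (standard error 0.07, adjusted p = 0.000114, limma) and -1.94 in A2780 (standard error 0.07, adjusted p = 2.86e-15, limma). Within C13* library numbers 1 to 3 it was 0.22 (adjusted p = 0.0686, limma), and within 4 to 8 it was 0.47.

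In all, 7 members were lower and 2 higher in C13* shCEBPB than in C13* shCON with an adjusted p under 0.05, where 45.7% and 38.9% of all genes tested were. Between A2780 OlaR and its parent, 7 members rose and 2 fell, against 40.1% and 49.7% of all genes. The rise of NFE2L2 among these was lost in several settings and larger after median ratio scaling and with the GC correction. A difference of at least 2-fold with an adjusted p under 0.05 was found for 4 of the 9 members in C13* (KEAP1, NQO1, GCLC and SLC7A11), against 29.5% of all genes, and for 4 in A2780 (NQO1, HMOX1, GCLC and TXNRD1), against 35.7%. In A2780 these names depended on the setting. TXNRD1 was at -0.89 on the log2 scale after median ratio scaling and at -0.91 with the GC correction. SLC7A11 was at 1.28 with the GC correction and at 1.14 within library numbers 1 to 3. Libraries of the 2 groups did not overlap in 7 members in C13*, against 66.0% of all genes, and in 8 in A2780, against 74.1%. For these 7 and 8 members the exact permutation test gave its smallest possible p, 0.000311 in C13* and 0.000155 in A2780 (two-sided). Libraries without overlap always give this p, so it adds nothing to the counts of overlap. The median log2 difference of the members was -0.78 in C13* and 0.68 in A2780. All 9 members were called in both comparisons, where 84.7% and 89.8% of all genes were.

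**Figure D3:**
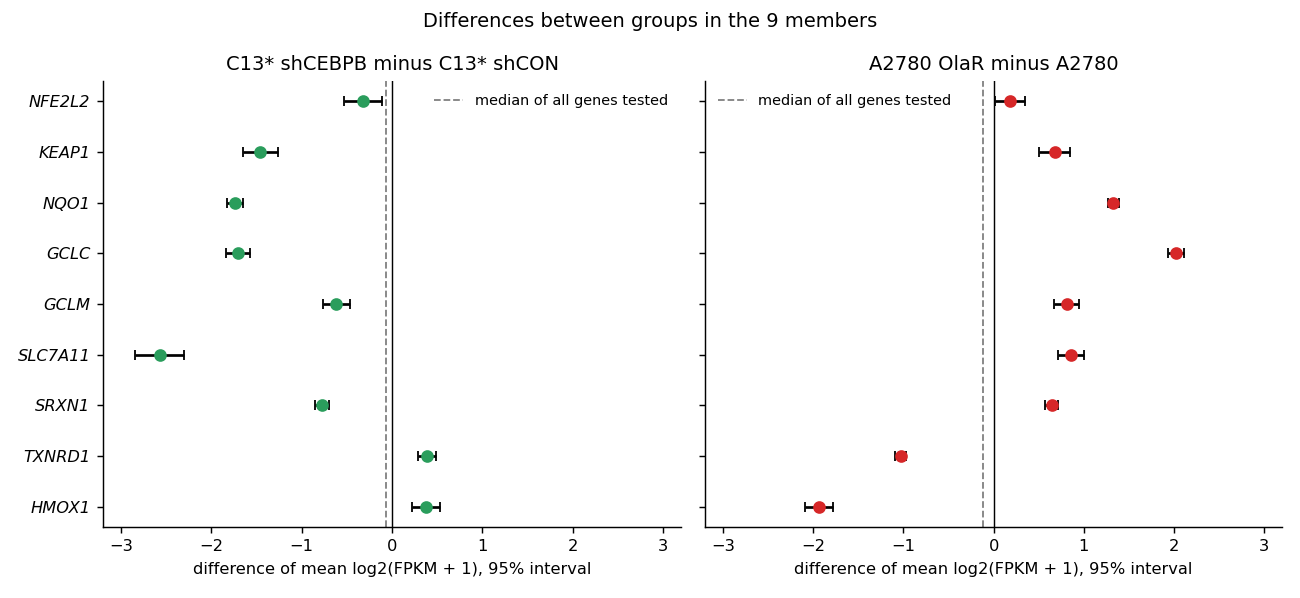
Difference of mean log2(FPKM + 1) in each member (points) with its 95% confidence interval from limma, for C13* shCEBPB minus C13* shCON (left) and A2780 OlaR minus A2780 (right), with a dashed line at the median of all genes tested. The 7 members above TXNRD1 lie below 0 on the left and above 0 on the right, and TXNRD1 and HMOX1 lie on the other side in each.

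The 4 groups fell into a similar order in most members. NQO1, GCLC, KEAP1 and SLC7A11 were highest in A2780 OlaR, then C13* shCON, then A2780, and lowest in C13* shCEBPB, and the means of NFE2L2 had the same order. In NQO1 and GCLC each step of this order passed the test. The step from A2780 OlaR to C13* shCON was 0.14 on the log2 scale in NQO1 (standard error 0.03, adjusted p = 0.00129, limma) and 0.77 in GCLC (standard error 0.03, adjusted p = 5.48e-13, limma). Of 11547 genes tested between these 2 groups, 46.9% differed at least as much as NQO1, and 1.22% at least as much as GCLC. For KEAP1, SLC7A11, NFE2L2, GCLM and TXNRD1, A2780 OlaR and C13* shCON were not told apart, with log2 differences of 0.21, 0.10, 0.14, 0.11 and -0.05 and adjusted p from 0.0672 to 0.277. The 95% intervals of these differences reached 0.39, 0.26, 0.33, 0.25 and, for TXNRD1, -0.11. With the GC correction, KEAP1, SLC7A11, NFE2L2 and GCLM passed, with 0.14, 0.21, 0.19 and 0.22. Of the 9 members, 4 passed the test between A2780 OlaR and C13* shCON (NQO1, HMOX1, GCLC and SRXN1), against 42.2% of all genes. SRXN1 was highest in C13* shCON and lowest in A2780, and HMOX1 and TXNRD1 were highest in A2780 and lowest in A2780 OlaR. At the low end, A2780 and C13* shCEBPB were not told apart in GCLM (log2 difference of shCEBPB from A2780 0.09, 95% interval -0.06 to 0.23) and SRXN1 (0.06, -0.02 to 0.14). After median ratio scaling these were 0.25 and 0.23 and passed, and after quantile normalization they were 0.26, which passed, and -0.04. NFE2L2 did not differ between C13* shCON and A2780 by the test (0.05, 95% interval -0.08 to 0.17). The other pairs across cell lines have no place in the design, and 88.9% of genes tested differed between C13* shCEBPB and A2780, 91.4% between C13* shCON and A2780, and 83.7% between A2780 OlaR and C13* shCEBPB.

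Other genes of the pathway were taken from 8 lists of 96 genes in all, sorted by function. The lists were chosen with earlier results of these data known, so their counts describe the listed genes and test nothing. In C13*, 32 of 86 genes tested were higher and 45 lower in shCEBPB (37.2% and 52.3%), against 38.9% and 45.7% of all genes tested. In A2780, 46 of 87 rose and 28 fell in the OlaR strain (52.9% and 32.2%), against 40.1% and 49.7% of all genes. The counts of each list below stand against these same shares. The list of other NRF2 targets holds enzymes and carriers of detoxification. It leaves out any targets placed in the other lists. It also leaves out the members, of which 7 rose in A2780 OlaR and 2, HMOX1 and TXNRD1, fell. Its counts therefore depend on how the lists were cut and do not stand for all NRF2 targets. Of its 18 genes tested, 17 rose in A2780 OlaR and 1 fell, with a median log2 difference of 2.43 against -0.12 over all genes, and 12 rose at least 2-fold. In C13* shCEBPB 12 were lower and 6 higher, with a median of -1.07 against -0.07, and 9 fell at least 2-fold. ALDH3A1, an aldehyde dehydrogenase, fell most in C13*, from 1019 ± 82.5 (SD, n = 7) to 9.94 ± 2.05 FPKM (SD, n = 8). It rose most in A2780, by 10.36 on the log2 scale (standard error 0.07, adjusted p = 2.42e-27, limma). AKR1C3, an aldo-keto reductase with near-identical paralogs among which reads can be split, rose from 1.50 ± 0.319 to 18.3 ± 2.10 FPKM in C13* shCEBPB. NQO2, the paralog of NQO1 that uses another electron donor, was the gene of the list that fell in A2780 OlaR, from 43.2 ± 1.32 to 23.5 ± 0.952 FPKM.

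Among regulators of KEAP1 and NRF2, 8 genes were higher and 9 lower in C13* shCEBPB, and 5 rose, 7 fell and 5 were not called in A2780 OlaR. All 17 were thus called in C13*, against 84.7% of all genes, and 12 of 17 (70.6%) in A2780, against 89.8%. MAFK, a small MAF partner of NRF2, rose from 9.40 ± 2.31 (SD, n = 7) to 68.4 ± 21.5 FPKM (SD, n = 8) in C13* shCEBPB, a log2 difference of 2.70 (standard error 0.20, adjusted p = 6e-10, limma). In A2780 OlaR MAFK fell from 20.5 ± 2.80 to 7.14 ± 2.16 FPKM, the largest fall of the list. NFE2L3, which encodes the NRF2 relative NRF3, fell from 7.97 ± 0.379 to 4.02 ± 0.643 FPKM in C13* shCEBPB. DPP3, a peptidase known to bind KEAP1, rose from 9.75 ± 0.637 to 30.7 ± 3.32 FPKM in A2780 OlaR. After median ratio scaling 8 regulators, not 5, were higher in A2780 OlaR, and with a filter at 5 FPKM 3 were.

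Of the genes that supply and use glutathione, 6 of 15 were higher, 6 lower and 3 not called in C13* shCEBPB, against 38.9% and 45.7% of all genes, and 6 rose and 9 fell in A2780 OlaR, against 40.1% and 49.7%. GPX2, a glutathione peroxidase, fell from 42.8 ± 1.88 (SD, n = 7) to 0.111 ± 0.0743 FPKM (SD, n = 8) in C13* shCEBPB, and GLRX, glutaredoxin, rose from 3.98 ± 0.467 to 19.9 ± 1.19 FPKM. GPX1 was between 0.0393 and 1.09 FPKM in A2780 and between 327 and 504 in A2780 OlaR. CHAC1, which breaks down glutathione, fell in A2780 OlaR from 68.0 ± 4.02 to 3.03 ± 0.526 FPKM. Among thioredoxin and peroxiredoxin genes, 4 of 11 were higher and 5 lower in C13* shCEBPB, and 5 rose and 3 fell in A2780 OlaR. The mitochondrial reductase TXNRD2 moved as TXNRD1 did. It rose from 10.9 ± 0.864 to 56.9 ± 12.7 FPKM in C13* shCEBPB and fell from 56.5 ± 6.54 to 16.3 ± 3.02 FPKM in A2780 OlaR. TXNIP, the thioredoxin inhibitor, fell from 216 ± 12.0 to 38.6 ± 7.34 FPKM in C13* shCEBPB, and PRDX1 rose from 242 ± 10.7 to 711 ± 44.0 FPKM in A2780 OlaR.

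NADPH feeds glutathione and thioredoxin reductases as well as NQO1. Of 7 genes of its supply, 5 rose and 1 fell in A2780 OlaR, with a median log2 difference of 0.69, and 2 were higher and 4 lower in C13* shCEBPB, with a median of -0.36. IDH1, an isocitrate dehydrogenase that makes NADPH, fell in A2780 OlaR from 137 ± 7.41 to 52.6 ± 5.86 FPKM (n = 8 each). In C13* shCEBPB malic enzyme ME1 fell from 31.1 ± 1.95 to 11.6 ± 1.56 FPKM, while IDH1 rose from 40.2 ± 2.24 to 48.9 ± 5.65 FPKM, a call that quantile normalization ended (adjusted p = 0.0618, limma). The log2 difference of IDH1 there was 0.27, or 0.14 within libraries 4 to 8 and 0.49 within 1 to 3 and with the GC correction. In haem and iron handling, 5 of 9 genes rose and 3 fell in A2780 OlaR, and 1 of 8 was higher and 5 lower in C13* shCEBPB. TFRC, the transferrin receptor, rose from 26.4 ± 1.05 to 119.9 ± 7.61 FPKM in A2780 OlaR, and the iron exporter SLC40A1 was at 2.51 ± 0.250 FPKM in A2780 and listed at 0 in every A2780 OlaR library. The haem carrier SLC48A1 fell from 35.6 ± 0.934 to 9.91 ± 0.881 FPKM in C13* shCEBPB. Ferritin heavy chain FTH1, which has many pseudogenes, rose there by 0.13 on the log2 scale (adjusted p = 0.00814, limma), or by 0.07 within libraries 1 to 3 (adjusted p = 0.349), 0.23 with the GC correction and 0.33 with quantile normalization.

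Superoxide and peroxide removal showed 4 of 8 genes higher and 3 lower in C13* shCEBPB, while 1 rose and 4 fell in A2780 OlaR. SOD2, the mitochondrial superoxide dismutase, rose from 25.1 ± 0.595 to 73.3 ± 2.25 FPKM in C13* shCEBPB, and MSRB3, a methionine sulfoxide reductase, fell from 9.83 ± 0.404 to 3.98 ± 0.949. In A2780 OlaR SOD1 rose from 171 ± 5.29 to 226 ± 15.7 FPKM and MSRB2 fell from 15.9 ± 1.23 to 3.81 ± 0.527. Of 8 genes of the oxidant-producing NADPH oxidases, 6 were too low to be tested. DUOX1, a dual oxidase, fell from 6.16 ± 0.602 to 0.0587 ± 0.0316 FPKM in C13* shCEBPB. CYBA, the shared small subunit, rose from 2.27 ± 0.745 to 240.4 ± 76.4 FPKM in A2780 OlaR. In C13* shCEBPB it was 332 ± 103 FPKM against 195 ± 43.7 in C13* shCON, with a log2 difference of 0.72 that was -0.0018 within libraries 1 to 3 (adjusted p = 0.991, limma), 1.18 within 4 to 8 and 0.40 with the GC correction.

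**Figure D4:**
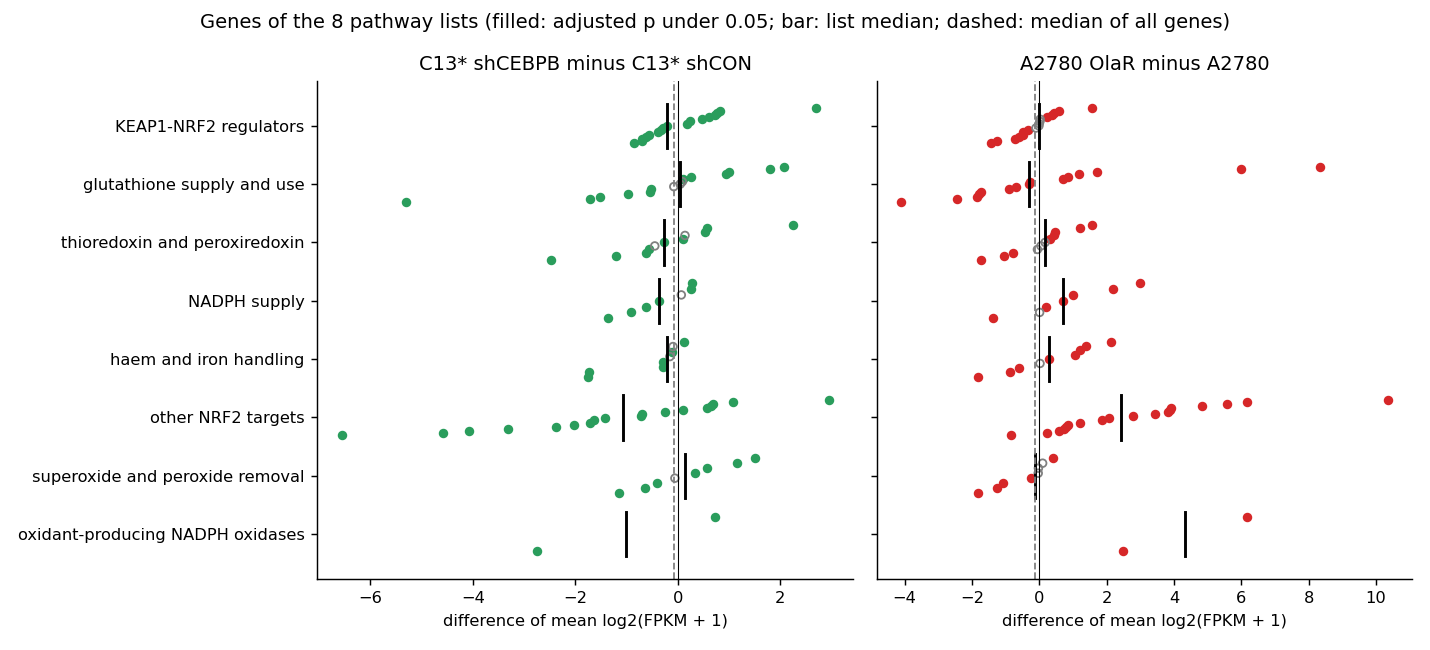
Difference of mean log2(FPKM + 1) of each tested gene of the 8 pathway lists, for C13* shCEBPB minus C13* shCON (left) and A2780 OlaR minus A2780 (right); filled points passed an adjusted p under 0.05, open points did not, black bars are list medians and the dashed line is the median of all genes. The other NRF2 targets reach from -6.56 to 2.95 on the left and from -0.85 to 10.36 on the right.

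The genes most like NQO1 over the 31 libraries were sought among 7098 other genes with a mean of at least 10 FPKM. Likeness was the root mean square difference of log2(FPKM + 1), centred on each gene's mean. The 10 nearest were TTC19 (0.11), AP2B1 (0.11), FTL (0.11), SLC48A1 (0.13), SEL1L3 (0.13), TM7SF3 (0.14), HIF1A (0.14), TMX1 (0.15), GINS1 (0.16) and DHRS7B (0.16). FTL, the ferritin light chain, and SLC48A1 are on the list of haem and iron handling. FTL had mean levels of 1384 FPKM in A2780, 2889 in A2780 OlaR, 2763 in C13* shCON and 831 in C13* shCEBPB. Of the members, GCLC was the nearest to NQO1 at rank 103 (difference 0.29) and KEAP1 the next at rank 169 (0.36). GCLM, SRXN1 and SLC7A11 ranked 448, 497 and 505, NFE2L2 ranked 1367, and TXNRD1 and HMOX1 ranked 5276 and 6197. The libraries of a group share their cells, so this likeness rests mainly on 4 group levels.

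**Figure D5:**
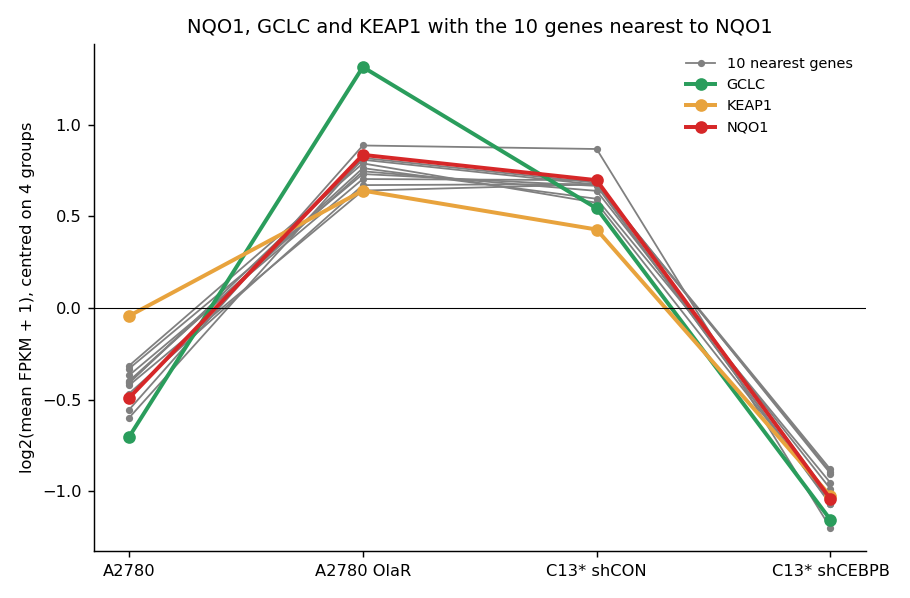
Group means as log2(mean FPKM + 1), centred on the 4 groups, for NQO1 (red), GCLC (green), KEAP1 (yellow) and the 10 genes nearest to NQO1 (grey), with lines that only join the groups of a gene. NQO1 and its neighbours are above 0 in A2780 OlaR and C13* shCON and below 0 in A2780 and C13* shCEBPB, and GCLC is farther above 0 in A2780 OlaR than any of them.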

How the data were processed

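RNA of 31 cell line libraries was sequenced as 150-bp paired-end reads by the authors, mapped to hg38 with TopHat and assigned to genes by HTseq. A single table of FPKM, as deposited by the authors, was used here. How FPKM were computed from the counts, the annotation and the strand setting are not given in the sources used here. Of 19225 entries, 4 whose symbol was repeated were dropped. Groups came from the sample titles. A gene entered a test when its FPKM reached 1 in a number of libraries equal to the smaller group. The test was made on log2(FPKM + 1) with limma 3.58.1 in R 4.3.3 (lmFit, eBayes with a trend, two-sided), adjusted by Benjamini-Hochberg over all genes tested. Each comparison used its own 2 groups. Members also had an exact permutation test (scipy 1.17.1). The test was also run on simulated data with 200 of 11220 genes changed by 1 on the log2 scale, 7 libraries against 8. There limma found 200, with 7.41% of its calls false. The simulated noise was independent between genes and few genes changed, unlike in these data. It therefore does not measure the share of false calls here.

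Positions, and the GC content of canonical transcripts, came from GENCODE 44 on hg38 by symbol (GC content for 18278 of 19221 genes). Promoter windows are from RefSeq (GRCh38.p14), and upstream bases were read from hg38. The members, gene lists and marker lists were chosen with earlier results of these data known. In each list, the gene with the largest rise and that with the largest fall among genes with an adjusted p under 0.05 are named, and for NQO1 the 10 nearest profiles. A single gene that this rule names is not reported here. Tried as well were pseudocounts of 0.1 and 0.01, other filters and scalings, 1 fit of all groups, replicate blocks, library ranges and leaving out each library. FPKM hold no read totals, so no counting intervals are given.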

Additional observations from a re-analysis of the deposited data

Results flagged for a closer look

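Among 40 sets of libraries (the 9 members and CEBPB in each of 4 groups), 1 had a library far from the others. NQO1 in A2780 replicate 8 was 159 FPKM, while the other 7 A2780 libraries lay between 142 and 149. Its gap to the nearest library was more than the limit of Dixon's test at 95%, which chance passes in about 1 of 20 sets. Without this library the NQO1 difference between A2780 OlaR and A2780 was 1.34 on the log2 scale.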

How the results depend on the processing

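At a fold change of at least 2, the 9 members called were 4 in C13* (0 higher, 4 lower) and 4 in A2780 (2 higher), and the genes called were 3539 in C13* (1530 higher, 2009 lower) and 4446 in A2780 (1936 higher, 2510 lower), since the threshold is stricter. Within library numbers 1 to 3, 1 member was higher in C13* shCEBPB, since HMOX1 lost its call, and NFE2L2 was at 0.020. NFE2L2 was at -0.0058 within numbers 4 to 8 of A2780, and CEBPB at -0.055 within numbers 1 to 3 of A2780; the cause was not tested. Between groups of different lines, NFE2L2 was at 0.062 for C13* shCEBPB minus A2780 with the GC correction and at -0.0128 for C13* shCON minus A2780 with a common sum, and SRXN1 was at -0.039 for C13* shCEBPB minus A2780 with quantile normalization. Of 513 values of the members in the 2 comparisons of the study under alternatives, 496 kept direction and side of the threshold, and the others were all of NFE2L2 except 1 of HMOX1. Of 944 counts of the pathway lists, 907 were within 1.5 times the value given.

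Libraries with the same replicate number did not deviate together (mean r across genes -0.148 in C13* and -0.233 in A2780, against 0.0234 and 0.0370 for other replicate numbers). In all, 0 libraries correlated best with their own replicate number. Replicates 6 and 7 of C13* shCON have library numbers 7 and 8, so their pairs do not share a library number. A replicate block left 9 members called in C13* and 8 in A2780, where NFE2L2 had an adjusted p of 0.0513 (limma), and 9885 and 10960 genes. It changed no other member's call. FPKM give no counts, so no limit from depth can be set for the low values.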
